A study of Mus musculus with 11 samples.

Results

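Treg cells receive cytokine signals through receptor chains whose transcripts can differ between tissues and with antigen. The data described here are the rows of 10 such chains in a deposited table of 52997 genes: Ifngr1 for IFN-γ, Il10ra for IL-10, Il27ra for IL-27, Il6ra and Il6st for IL-6, Il4ra for IL-4, Il7r for IL-7, Il21r for IL-21, and Tgfbr1 and Tgfbr2 for TGF-β. They were chosen by name, and all 10 were among the 12932 genes abundant enough to be tested. RNA-seq libraries were made from vTreg53 Treg cells, which carry the transgenic TCR of 1 clone (genotype vTreg53 Tg+, strain C57BL/6, with a Foxp3-GFP reporter knock-in) and were transferred into CD45.1+ B6 recipients that kept Treg cells of their own. At 6 weeks after transfer the recipients were primed with CFA, and 1 week later boosted with IFA, with or without the agonist peptide Fat1562. Clonotype+ Treg cells were double-sorted a week after the boost from pooled spleen and lymph nodes (Spl/LN) or from visceral adipose tissue (VAT), 1000 cells per library, when the labels give the mice as 15 weeks old. With adjuvant alone, Spl/LN gave 3 libraries and VAT 2, and with adjuvant/Fat1562 each gave 3. The labels call the control mice unimmunized and name PBS, and the term adjuvant alone follows the study's methods. How many mice stood behind a library is not given. The study's methods describe digestion of VAT with collagenase and give no such step for Spl/LN. In the comparisons of VAT with Spl/LN, tissue and cell isolation therefore cannot be told apart.

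These receptors fall into a few families. IL-4, IL-7 and IL-21 bind a private chain that pairs with the common γ chain, Il2rg, and signal mainly through STAT6, STAT5 and STAT3. IL-6 binds Il6ra, which then joins the signal-transducing chain gp130, encoded by Il6st, and IL-27 uses Il27ra with the same gp130. IL-10 and IFN-γ use class II receptors made of a ligand-binding chain (Il10ra, Ifngr1) and an accessory chain (Il10rb, Ifngr2), acting through STAT proteins. TGF-β assembles the type 2 kinase Tgfbr2 with the type 1 kinase Tgfbr1, which phosphorylates Smad2 and Smad3. Most Treg cells carry little of the IL-7 receptor, IL-6 opposes the induction of Foxp3, and TGF-β helps to induce it.

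Counts per library totalled 4490242 to 6570057, and the members had between 43 (Il6ra in VAT with adjuvant/Fat1562) and 13095 counts (Ifngr1 in VAT with adjuvant alone). Normalized counts are counts divided by the library size as scaled by edgeR's TMM method and brought to the mean library size. Fold changes come from edgeR's quasi-likelihood test in one fit of the 4 groups, and a gene was called at a Benjamini-Hochberg adjusted p under 0.05 over all 12932 genes. The labels number the libraries without naming separate mice, so the p-values measure the spread between libraries. Foxp3, the lineage factor of Treg cells, had 6746 to 10255 normalized counts in the 11 libraries and Cd4 had 2114 to 3518. Summed over their lists, the markers of B cells, of macrophages and dendritic cells, of adipocytes and stroma, and of CD8 T and NK cells came to at most 0.0118% of the counts in any library, against 0.594% to 1.01% for 8 Treg genes. The sum over 10 B cell markers was 239 to 383 and 261 to 358 normalized counts in Spl/LN without and with Fat1562, and 115 to 192 and 83.2 to 125 in VAT. That over 12 adipocyte and stroma markers, most of it Pecam1, was 509 to 543 and 513 to 591 in Spl/LN and 268 to 314 and 452 to 634 in VAT. That over 8 CD8 T and NK cell markers, most of it Cd8b1, was 101 to 131 and 102 to 163 in Spl/LN and was highest in VAT with adjuvant alone, at 175 to 195, against 107 to 145 in VAT with Fat1562. Cd8b1 itself had 66.3 to 122 normalized counts in Spl/LN, 171 and 193 in VAT with adjuvant alone, and 91.6 to 137 in VAT with Fat1562. Macrophage and dendritic cell markers (14) summed to 128 to 205 and 131 to 175 in Spl/LN and to 89.8 to 95.5 and 142 to 215 in VAT. Of the defining markers, Adipoq did not exceed 8.22 and Cd8a 6.39 normalized counts in any library. The part of other cells in the results below was not tested. In bulk libraries, a receptor lost from some cells cannot be told apart from less transcript in each. Spl/LN replicate 3 with adjuvant alone stood apart from the other 2 of its group (chi-square over degrees of freedom of at least 10.4, against 6.69 between those 2). Leaving it out ended or added no call for a member.

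The start regions of 3 members are shown: Ifngr1 and Il6ra had the largest tissue differences of the members, and for Il6st the change with Fat1562 differed between the tissues by the test of the interaction. Each sequence is the 250 bases before the gene's start in RefSeq's annotation of GRCm38.p6, the build of the deposited counts (mm10), read 5′ to 3′ on the strand of the gene. The table held such windows for 8 of the 10 members, without Il10ra and Il27ra. Capitals mark the matches, on either strand, to 8 short motifs: TTCNNNGAA for STATs, the same ends with 4 free bases between them for STAT6, GTAAACA for FOXO, GTCTAGAC for SMADs, AGATAA for GATA factors, TGACGTCA for CRE, CACGTG for the E-box and GGGCGG for the GC box.
Ifngr1, chr10:19591699-19591948, plus strand: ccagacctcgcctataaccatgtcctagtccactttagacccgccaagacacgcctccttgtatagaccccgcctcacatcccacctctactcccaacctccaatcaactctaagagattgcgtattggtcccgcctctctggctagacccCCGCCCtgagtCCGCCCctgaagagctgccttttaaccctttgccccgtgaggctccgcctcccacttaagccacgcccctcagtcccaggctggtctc
Il6ra, chr3:89913197-89913446, minus strand: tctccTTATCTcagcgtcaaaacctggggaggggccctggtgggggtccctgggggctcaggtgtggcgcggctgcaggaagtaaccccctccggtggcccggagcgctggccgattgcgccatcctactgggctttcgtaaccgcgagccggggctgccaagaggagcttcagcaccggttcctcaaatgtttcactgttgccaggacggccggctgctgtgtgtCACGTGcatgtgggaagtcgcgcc
Il6st, chr13:112463820-112464069, plus strand: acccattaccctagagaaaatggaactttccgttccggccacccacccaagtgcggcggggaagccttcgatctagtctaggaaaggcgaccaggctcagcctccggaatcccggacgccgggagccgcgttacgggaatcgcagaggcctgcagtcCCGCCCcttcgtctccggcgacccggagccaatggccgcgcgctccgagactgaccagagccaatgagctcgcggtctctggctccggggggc
The Ifngr1 window held 2 GC boxes, which begin 99 and 88 bases before the start, and the Il6st window held 1 at 93 bases. The Il6ra window held a GATA match at 245 bases and an E-box at 24 bases. Of 32851 windows of this length, 32.7% held a GC box, 9.99% the GATA motif and 6.02% the E-box. None of the 3 windows held a STAT, STAT6, FOXO, SMAD or CRE match, which 7.02%, 5.85%, 3.17%, 0.167% and 1.55% of all windows did. Among the other members, the Il7r window held a STAT match and the Il21r window a FOXO match. No match overlapped another, and a match describes letters, not binding.

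Of the 10 receptors, 8 were called in at least 1 of the 4 comparisons. With adjuvant alone, 4 members were higher in VAT (Ifngr1, Il10ra, Il7r, Il4ra) and 2 were lower (Il6ra, Il6st). In this comparison 16.3% of all tested genes were called, 9.09% higher and 7.17% lower. With adjuvant/Fat1562, 2 members were higher in VAT (Ifngr1, Il7r) and 3 lower (Il6ra, Il27ra, Tgfbr2), where 15% of all genes were called, 8.26% higher and 6.73% lower. Fat1562 lowered 5 members in VAT (Il10ra, Il6ra, Il7r, Il4ra, Ifngr1) and raised none (edgeR), with 8.3% of all genes called, 4.32% higher and 3.97% lower. At an unadjusted p under 0.05, edgeR had 2 members higher and 7 lower there, and DESeq2 and limma voom also called none higher. In Spl/LN Fat1562 lowered 2 (Il6ra, Il6st) and raised 1 (Ifngr1), with 3.98% of all genes called, 2.58% higher and 1.4% lower. The change with Fat1562 differed between the tissues for 3 members, as 3.72% of all genes did, 1.7% upward and 2.02% downward in VAT relative to Spl/LN. The comparisons share libraries, so their calls are not independent. Over the 10 members the median log2 fold change was −0.37 for Fat1562 in VAT, against 0.01 over all genes tested, and −0.02 in Spl/LN, where the median of all genes was near 0. For VAT against Spl/LN it was −0.10 with adjuvant alone and −0.04 with adjuvant/Fat1562, against −0.03 and −0.01 over all genes. Ifngr1 and Il6ra were called in all 4 comparisons, and Il21r and Tgfbr1 in none.

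**Figure D1:**
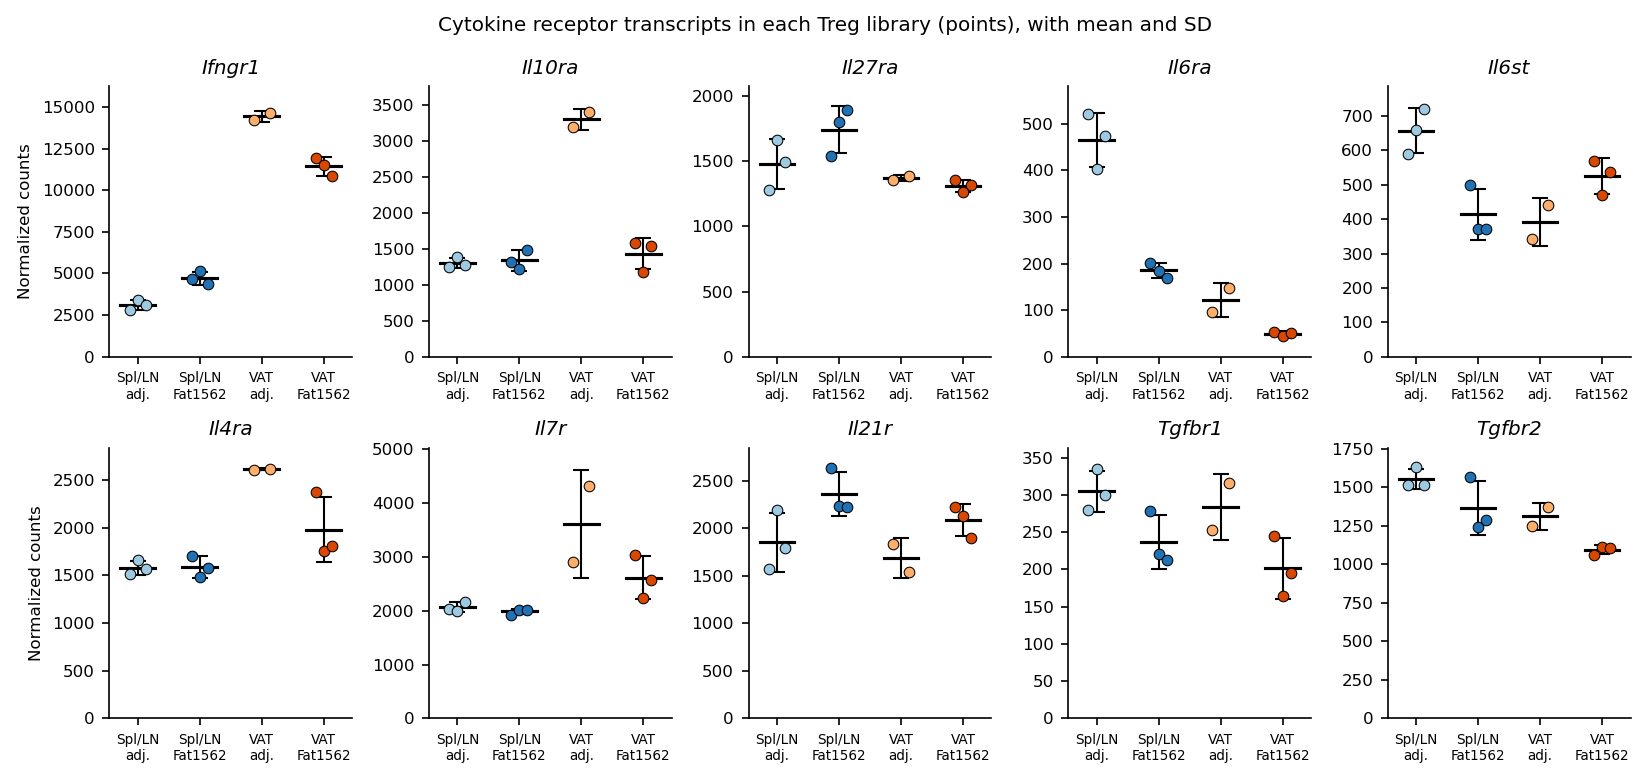
Normalized counts (y axis, from 0) of the 10 receptor chains in the 11 libraries, by group (adj. = adjuvant alone); points are libraries, the long bar is the group mean and the error bars are ±1 SD (n = 3, or 2 for VAT with adjuvant alone). Ifngr1 lies at 10827 or more in the VAT libraries and at 5140 or less in those of Spl/LN, and Il6ra is lowest in VAT with adjuvant/Fat1562.

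Ifngr1 encodes the chain that binds IFN-γ, and it was the most abundant of the 10 receptors in every group. It had the largest tissue difference of the 10 with adjuvant alone, and Il6ra had the largest with adjuvant/Fat1562. Its gene lies at chr10:19591949-19610229 (plus strand, GRCm38). In Spl/LN with adjuvant alone the 3 libraries had 2805, 3393 and 3118 normalized counts. With adjuvant/Fat1562 the Spl/LN libraries had 4650, 5140 and 4348. The VAT libraries had 14206 and 14644 with adjuvant alone and 11920, 11519 and 10827 with adjuvant/Fat1562. No 2 groups overlapped, and the order from low to high was Spl/LN with adjuvant alone, Spl/LN with Fat1562, VAT with Fat1562 and VAT with adjuvant alone. VAT was 4.65-fold higher than Spl/LN with adjuvant alone (log2 fold change 2.22 ± 0.09 SE, edgeR adjusted p = 1.40e-11) and 2.42-fold higher with adjuvant/Fat1562 (1.28 ± 0.08 SE, edgeR adjusted p = 8.41e-09). Fat1562 raised the transcript 1.52-fold in Spl/LN (0.60 ± 0.08 SE, edgeR adjusted p = 0.000329). In VAT the transcript fell by 0.34 on the log2 scale (SE 0.09, edgeR adjusted p = 0.0269). The difference between these 2 changes was −0.94 ± 0.12 SE (edgeR adjusted p = 0.000313 for the interaction of tissue and immunization), and it stayed called under every alternative that was run. The fall in VAT was no longer called without either VAT library given adjuvant alone, replicate 1 (adjusted p = 0.101) or 2 (0.170), or without VAT replicate 2 (0.0743) or 3 (0.0859) given Fat1562.

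Ifngr2, the accessory chain that IFN-γ signaling also needs, did not follow. Its normalized counts were 311 ± 58.9 (SD, n = 3) and 268 ± 14.3 (SD, n = 3) in Spl/LN without and with Fat1562, and 259 ± 10.6 (SD, n = 2) and 220 ± 70.3 (SD, n = 3) in VAT. The log2 fold change of Ifngr2 between VAT and Spl/LN was −0.26 ± 0.23 SE with adjuvant alone (edgeR adjusted p = 0.494), and it was called in no comparison. Per kb of annotated exon, Ifngr1 exceeded Ifngr2 by 13.5 ± 2.54-fold and 23.3 ± 1.95-fold in Spl/LN (SD, n = 3 each) and by 73.7 ± 4.58-fold (SD, n = 2) and 72.9 ± 20.8-fold (SD, n = 3) in VAT. The Spl/LN and VAT ratios did not overlap. Of 22 genes that IFN-γ induces, 20 were tested. With adjuvant alone 3 were higher in VAT and 5 lower, and with adjuvant/Fat1562, 0 were higher and 6 were lower (edgeR, with 3 higher and 8 lower at an unadjusted p under 0.05, and 0 higher by DESeq2 and limma voom). The 6 included Irf1 (1.55-fold lower, edgeR adjusted p = 0.000500), a transcription factor, and the GTPases Gbp4 (1.46-fold lower, edgeR adjusted p = 0.000631) and Irgm1 (1.43-fold lower, edgeR adjusted p = 0.00292). Fat1562 changed 2 of the 20 upward and 2 downward in VAT. In Spl/LN edgeR, DESeq2 and limma voom each called 0, and 4 lay higher and 3 lower at edgeR's unadjusted p under 0.05. Nlrc5, the activator of MHC class I genes, fell 2.17-fold with Fat1562 in VAT (edgeR adjusted p = 9.03e-07), and the chemokine Cxcl10 fell 5.50-fold (edgeR adjusted p = 0.00107). With adjuvant alone these 2 were higher in VAT, 1.72-fold (edgeR adjusted p = 1.03e-05) and 5.21-fold (edgeR adjusted p = 0.000559). So was B2m (1.34-fold, edgeR adjusted p = 0.00244). The 2 that rose with Fat1562 in VAT were Gbp5, from a mean of 96.1 to 191 normalized counts, and Iigp1, from 124 to 308. Both rises lost their call under some alternatives. The median log2 fold changes of the list lay at −0.22 in both tissue comparisons, against −0.03 and −0.01 over all genes tested. Of all these genes, 9.09% were higher and 7.17% lower in VAT with adjuvant alone. With Fat1562, 8.26% were higher and 6.73% lower. Fat1562 itself changed 8.3% of them in VAT and 3.98% in Spl/LN.

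Il10ra, the ligand-binding chain for IL-10 (chr9:45253837-45269149, minus strand), was high in 1 group only. The VAT libraries given adjuvant alone had 3206 and 3404 normalized counts. The libraries of the other 3 groups were lower, with 1251, 1384 and 1285 in Spl/LN with adjuvant alone, 1316, 1216 and 1493 in Spl/LN with Fat1562, and 1579, 1184 and 1546 in VAT with Fat1562. These last 3 groups overlapped each other. VAT was 2.53-fold higher than Spl/LN with adjuvant alone (log2 fold change 1.34 ± 0.12 SE, edgeR adjusted p = 3.50e-07). With adjuvant/Fat1562 the difference was 0.10 (95% interval −0.14 to 0.33, edgeR adjusted p = 0.634). Fat1562 lowered Il10ra 2.30-fold in VAT (−1.20 ± 0.12 SE, edgeR adjusted p = 5.98e-06), and in Spl/LN the difference was 0.04 (95% interval −0.19 to 0.27, edgeR adjusted p = 0.894). The interaction was −1.24 ± 0.16 SE (edgeR adjusted p = 0.000331) and stayed called under every alternative that was run. An immunoglobulin light chain gene of B-lineage cells, Igkv14-126, was also highest in VAT with adjuvant alone, with 281 and 1746 normalized counts there, at most 0.965 in Spl/LN and at most 10.9 in VAT with Fat1562. The part of B-lineage RNA in the Il10ra result was not tested. The partner chain Il10rb ran from 581 to 782 normalized counts over the 11 libraries and was called in no comparison. Per kb, Il10ra exceeded Il10rb by 4.64 ± 0.138-fold in VAT with adjuvant alone (SD, n = 2) and by 1.71 to 2.80-fold in the libraries of the other 3 groups.

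The ligand Il10, the cytokine itself, was present in these cells and also differed by tissue. It had 17.4, 13.5 and 8.22 normalized counts in Spl/LN with adjuvant alone and 27.6, 36.3 and 40.0 with Fat1562. In VAT it had 1235 and 1048 with adjuvant alone and 906, 341 and 526 with Fat1562. All VAT libraries lay above all Spl/LN libraries. The VAT excess was 87.3-fold with adjuvant alone (edgeR adjusted p = 1.00e-09) and 16.9-fold with Fat1562 (edgeR adjusted p = 6.02e-08). Fat1562 lowered Il10 in VAT by 1.94-fold (edgeR adjusted p = 0.0354), a call that was lost without VAT replicate 1 (0.224) or 2 (0.098) given adjuvant alone, or without VAT replicate 2 (0.121) or 3 (0.112) given Fat1562. Tgfb1 was 2.09-fold higher in VAT with adjuvant alone (edgeR adjusted p = 0.00526) and was called in no other comparison. Without VAT replicate 2 given adjuvant alone, its log2 fold change was 0.97 and it was no longer called. Of the 12 ligand genes listed, 8 were too low to be tested, with at most 14 counts in any library (Il4, Il13, Il6, Il7, Il21, Il27, Ifng, Tgfb2). Ebi3, a subunit of IL-27 and IL-35, and Tgfb3 were tested and called in no comparison.

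**Figure D2:**
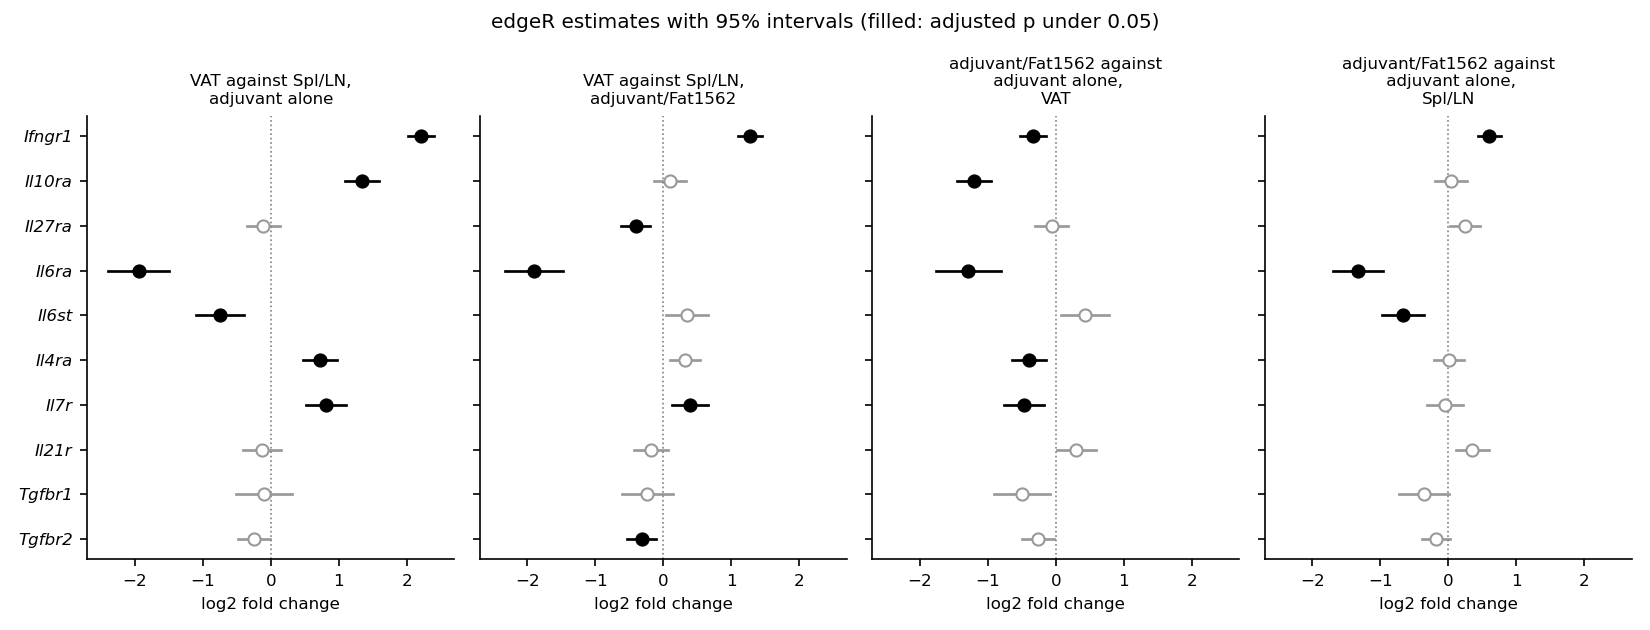
edgeR log2 fold changes (x axis) of the 10 receptor chains in the 4 comparisons, with 95% intervals (lines); filled points have an adjusted p under 0.05 over all 12932 genes. Il6ra lies left of 0 in all 4 panels, and Ifngr1 lies right of 0 in all panels but that of Fat1562 in VAT.

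Il6ra, the IL-6 binding chain (chr3:89864059-89913196, minus strand), was lower in VAT and lower with Fat1562 in both tissues. Its 3 libraries from Spl/LN with adjuvant alone had 520, 403 and 473 normalized counts. With Fat1562 the Spl/LN libraries had 202, 184 and 170. The VAT libraries had 95.5 and 147 with adjuvant alone and 52.8, 43.8 and 52.0 with Fat1562. The groups did not overlap and followed each other downward in the order given. VAT was 3.85-fold lower than Spl/LN with adjuvant alone (log2 fold change −1.94 ± 0.21 SE, edgeR adjusted p = 4.14e-06) and 3.73-fold lower with adjuvant/Fat1562 (−1.90 ± 0.20 SE, edgeR adjusted p = 2.92e-06). Fat1562 lowered Il6ra 2.51-fold in Spl/LN (−1.33 ± 0.18 SE, edgeR adjusted p = 0.000258) and 2.44-fold in VAT (−1.29 ± 0.22 SE, edgeR adjusted p = 0.00138). The 2 changes differed by 0.04 (95% interval −0.58 to 0.67), and a difference within that interval was not detectable here. Without VAT replicate 2 given adjuvant alone, the change in VAT was −0.94 and was not called (adjusted p = 0.0516).

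Il6st, which encodes gp130 (chr13:112464070-112510086, plus strand), moved with Fat1562 in Spl/LN and had an opposite, uncalled estimate in VAT. The libraries from Spl/LN had 589, 659 and 720 normalized counts with adjuvant alone and 499, 372 and 370 with Fat1562. Those from VAT had 343 and 440 with adjuvant alone and 570, 469 and 537 with Fat1562. Within each tissue the 2 groups did not overlap. Fat1562 lowered Il6st 1.59-fold in Spl/LN (log2 fold change −0.67 ± 0.14 SE, edgeR adjusted p = 0.0136), whereas in VAT the estimate was 0.43 ± 0.17 SE (edgeR adjusted p = 0.138). The interaction of 1.09 ± 0.22 SE was called (edgeR adjusted p = 0.00901). With adjuvant alone VAT was 1.68-fold lower than Spl/LN (−0.75 ± 0.17 SE, edgeR adjusted p = 0.00439), and with Fat1562 the estimate was 0.35 ± 0.15 SE (edgeR adjusted p = 0.130). The lower level in VAT and the interaction both rested on VAT replicate 1 given adjuvant alone, without which the adjusted p was 0.0920 and 0.0705. The fall in Spl/LN was not called without Spl/LN replicate 2 (0.0935) or 3 (0.0745) given Fat1562, and the VAT excess with Fat1562 was called without Spl/LN replicate 1 (0.0424).

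The ratio of Il6ra to Il6st per kb of exon put the 2 chains of the IL-6 receptor side by side. It was 0.920 ± 0.186 (SD, n = 3) in Spl/LN with adjuvant alone and 0.582 ± 0.0575 (SD, n = 3) with Fat1562. In VAT it was 0.393 ± 0.0507 (SD, n = 2) without Fat1562 and 0.121 ± 0.00283 (SD, n = 3) after it. By this measure the binding chain was near gp130 in the first group and far below it in the last, with no overlap between any of the 4 groups. The length of all annotated exons may differ from that of the transcripts expressed. The ratio thus compares groups and does not establish equal abundance of the chains. Counts per gene do not separate membrane-bound from soluble forms of either chain. Of the exon bases of Il6ra, 2.80% overlap Gm42809 on the opposite strand, and the strand setting of the counting is not given in the sources used here.

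**Figure D3:**
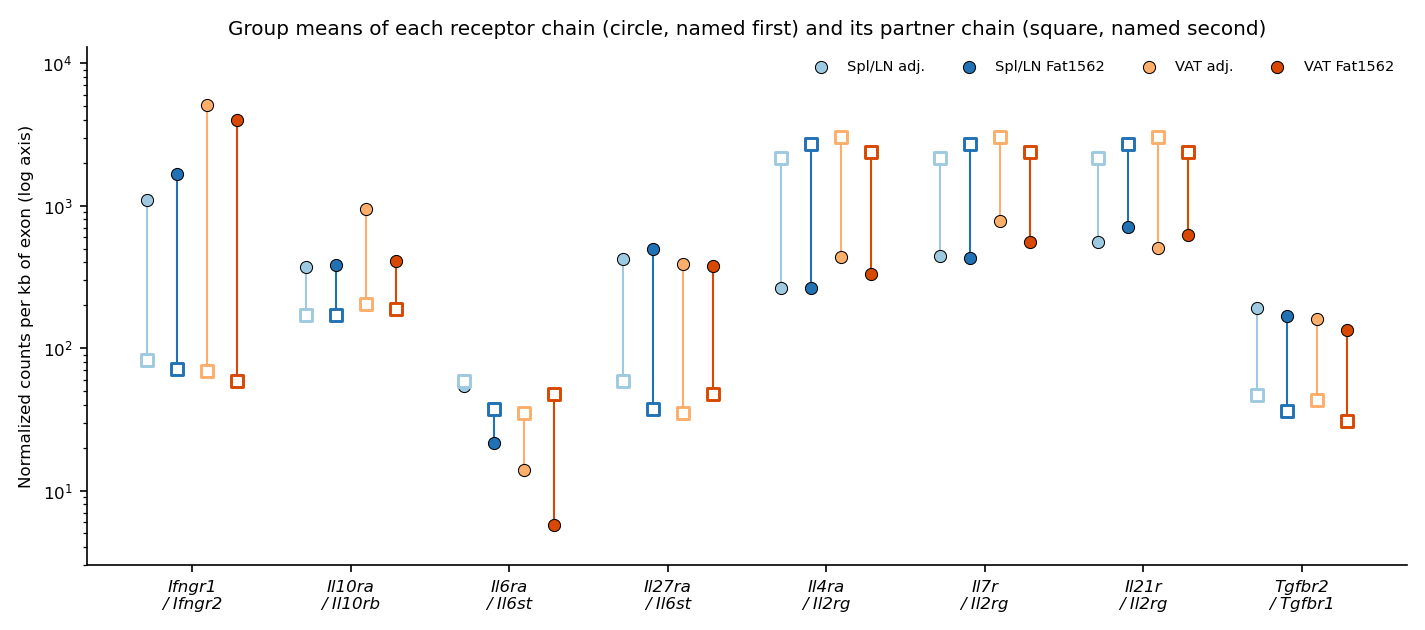
Group means of normalized counts per kb of annotated exon (log axis) of each ligand-binding or type 2 chain (circles, named first) and its partner chain (squares, named second), joined by a line, in the 4 groups. The gap from Ifngr1 to Ifngr2 is widest in VAT, and Il6ra falls below Il6st step by step from Spl/LN with adjuvant alone to VAT with Fat1562.

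Il27ra, the IL-27 specific chain (chr8:84030294-84042589, minus strand), varied little. The Spl/LN libraries had 1277, 1660 and 1496 normalized counts with adjuvant alone and 1538, 1800 and 1891 with Fat1562. The VAT libraries had 1356 and 1387 with adjuvant alone and 1355, 1265 and 1319 with Fat1562. VAT was 1.33-fold lower than Spl/LN with Fat1562 (log2 fold change −0.41 ± 0.10 SE, edgeR adjusted p = 0.0127), and these 2 groups did not overlap. Leaving out Spl/LN replicate 2 (0.0539) or 3 (0.0707) or VAT replicate 2 (0.0597), all given Fat1562, ended the call. Its other 3 differences ranged from −0.11 to 0.24 on the log2 scale and were not called. Per kb it exceeded its partner Il6st in every library, by 6.59 to 16.2-fold.

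Among 10 kinases and STATs used by these receptors, 3 were higher and 2 lower in VAT with adjuvant alone, and 3 were higher with Fat1562. Of all genes tested, 9.09% were higher and 7.17% lower with adjuvant alone, and 8.26% were higher and 6.73% lower with Fat1562. Stat3 is used by the receptors for IL-6, IL-10, IL-21 and IL-27. It was 1.66-fold higher in VAT with Fat1562 (edgeR adjusted p = 0.000124) and 1.45-fold higher with adjuvant alone (edgeR adjusted p = 0.00427). Without VAT replicate 1 given adjuvant alone, the latter log2 fold change was 0.46 and no longer called. Jak2, which serves the IFN-γ receptor, was 2.27-fold higher in VAT with adjuvant alone (edgeR adjusted p = 3.26e-05). Stat5a was 1.56-fold higher in VAT with Fat1562 (edgeR adjusted p = 0.00221). Jak1, Jak3, Tyk2 and Stat6 were called in no comparison. Fat1562 lowered 1 gene of the list in VAT, Stat4 (−0.73 ± 0.14 SE on the log2 scale, edgeR adjusted p = 0.00220, but 0.0597 without VAT replicate 1 given adjuvant alone). In Spl/LN edgeR, DESeq2 and limma voom called 0 of them, and 1 lay higher at edgeR's unadjusted p under 0.05. Of 12 genes induced through STAT3 in T cells, 5 were higher in VAT with adjuvant alone and 7 with Fat1562. Their median log2 fold changes were 0.35 and 0.47, against −0.03 and −0.01 over all genes tested. Junb, an AP-1 factor, had the smallest adjusted p of them (11.5-fold higher with adjuvant alone, edgeR adjusted p = 7.88e-15). The part of tissue digestion in this difference was not tested. With Fat1562, 2 of the 12 rose and 5 fell in VAT, and 3 rose and 3 fell in Spl/LN. Of all genes tested, Fat1562 changed 8.3% in VAT and 3.98% in Spl/LN. Junb fell in both tissues, 2.26-fold in VAT (edgeR adjusted p = 4.83e-08) and 1.35-fold in Spl/LN (edgeR adjusted p = 0.00128).

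Among 16 inhibitors of JAK and STAT signaling, the tyrosine phosphatase gene Ptpn6 (SHP-1) was lower in VAT and higher with Fat1562. It was 1.84-fold lower in VAT with adjuvant alone (edgeR adjusted p = 0.000107) and 1.83-fold lower with Fat1562 (edgeR adjusted p = 2.66e-05). Fat1562 raised it 1.99-fold in VAT (edgeR adjusted p = 9.38e-05) and 1.97-fold in Spl/LN (edgeR adjusted p = 6.15e-05). Ptpn1 (PTP1B) was called in the same direction as Ptpn6 in each of the 4 comparisons. Socs3, the inhibitor that binds gp130, fell 1.91-fold with Fat1562 in Spl/LN (edgeR adjusted p = 0.000343), where Il6st also fell. In all, 2 of the 16 were higher and 2 lower in VAT with adjuvant alone, 3 higher and 4 lower with Fat1562, 2 rose and 2 fell with Fat1562 in VAT, and 2 rose and 1 fell in Spl/LN. The shares of all tested genes called in these comparisons, in the same order, were 16.3%, 15%, 8.3% and 3.98%.

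Il4ra, the IL-4 binding chain, which also signals for IL-13 (chr7:125552120-125579474, plus strand), and Il7r, the IL-7 binding chain (chr15:9505788-9530176, minus strand), were both higher in VAT with adjuvant alone. Il4ra had 1515, 1657 and 1565 normalized counts in Spl/LN with adjuvant alone and 1709, 1479 and 1573 with Fat1562. In VAT it had 2607 and 2622 with adjuvant alone and 2378, 1756 and 1808 with Fat1562. The VAT libraries lay above those of Spl/LN under both conditions. VAT was 1.66-fold higher with adjuvant alone (log2 fold change 0.73 ± 0.12 SE, edgeR adjusted p = 0.000287). With Fat1562 the estimate was 0.32 ± 0.11 SE (edgeR adjusted p = 0.0542), which was called by DESeq2 (0.0326), with a mean above 50 (0.0444), and without VAT replicate 2 (0.0374) or 3 (0.0404). Fat1562 lowered Il4ra 1.32-fold in VAT (−0.40 ± 0.12 SE, edgeR adjusted p = 0.0448). That call was lost without VAT replicate 1 (0.176) or 2 (0.193) given adjuvant alone and without VAT replicate 2 (0.183) or 3 (0.138) given Fat1562. In Spl/LN the difference was 0.01 (95% interval −0.22 to 0.23), and its sign turned under several settings. The interaction of −0.41 ± 0.16 SE was not called (edgeR adjusted p = 0.186) except without VAT replicate 1 given Fat1562 (0.0286). Of the exon bases of Il4ra, 9.51% overlap Gm44876 on the opposite strand.

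For Il7r the Spl/LN libraries lay close together, at 2035, 1991 and 2164 normalized counts with adjuvant alone and 1927, 2013 and 2020 with Fat1562. The VAT libraries spread further, with 2901 and 4320 for adjuvant alone and 3032, 2238 and 2564 for Fat1562. Every VAT library was above every Spl/LN library, and the 2 VAT groups overlapped. VAT was 1.75-fold higher with adjuvant alone (log2 fold change 0.81 ± 0.14 SE, edgeR adjusted p = 0.000507), which came to 0.49 without VAT replicate 2 and was still called (adjusted p = 0.0309). With Fat1562 it was 1.31-fold higher (0.39 ± 0.13 SE, edgeR adjusted p = 0.0433). This call was lost without Spl/LN replicate 1 (0.130), 2 (0.102) or 3 (0.0928) or VAT replicate 1 (0.222) or 3 (0.0756) given Fat1562. The fall with Fat1562 in VAT (−0.47 ± 0.14 SE, edgeR adjusted p = 0.0466) came to −0.15 without VAT replicate 2 given adjuvant alone (adjusted p = 0.675) and to −0.73 without replicate 1. It was also not called without VAT replicate 2 (0.193) or 3 (0.106) given Fat1562. In Spl/LN the difference was −0.05 (95% interval −0.32 to 0.21).

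Among 10 transcription factors known to act on the Il7r gene in T cells, 9 were tested, and 1 was higher and 3 lower in VAT with adjuvant alone. Tcf7 (TCF-1) was 25.4-fold lower in VAT with adjuvant alone (edgeR adjusted p = 1.37e-06) and 18.3-fold lower with Fat1562 (edgeR adjusted p = 8.65e-07), and Ets1 was 1.36-fold and 1.39-fold lower (edgeR adjusted p = 0.000515 and 9.45e-05). Foxp1 fell with Fat1562 in VAT (−1.32 ± 0.16 SE on the log2 scale, edgeR adjusted p = 5.19e-05) and in Spl/LN (−1.08 ± 0.14 SE, edgeR adjusted p = 0.000254). Foxo1, the best known activator of Il7r, had a log2 fold change of −0.45 ± 0.16 SE in VAT with adjuvant alone and was called in no comparison. With Fat1562, 4 of the 9 were lower in VAT. Over all genes tested, 9.09% were higher and 7.17% lower with adjuvant alone, and 6.73% were lower with Fat1562.

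Of 10 genes that IL-4 induces through STAT6, 9 were tested, Il4ra among them. With adjuvant alone 7 were higher in VAT, and the median log2 fold change was 1.11, against −0.03 over all genes tested. With Fat1562, 5 were higher, with a median of 0.34 against −0.01. Of all genes tested, 9.09% and 8.26% were higher. The list holds Pparg, which the paper names as the main driver of the VAT-Treg transcriptome. It was 30.8-fold higher in VAT with adjuvant alone (edgeR adjusted p = 1.09e-07). A high count in VAT is thus no measure of IL-4 signaling by itself. Gfi1, at the median with adjuvant alone, was not called with only the groups compared (edgeR adjusted p = 0.0648). By edgeR, DESeq2 and limma voom, 0 of the 9 were lower in either comparison, and at edgeR's unadjusted p under 0.05, 0 were lower with adjuvant alone and 2 with Fat1562. Gata3, the Th2 transcription factor that VAT Treg cells also express, was 2.39-fold higher in VAT with adjuvant alone (edgeR adjusted p = 2.05e-06) and fell 1.76-fold with Fat1562 in VAT (edgeR adjusted p = 0.000586). The chemokine receptor Ccr8 was 3.60-fold higher in VAT with adjuvant alone (edgeR adjusted p = 6.35e-08) and rose with Fat1562 in VAT, by 2.01-fold (edgeR adjusted p = 0.000314). Cish and Socs2, feedback inhibitors induced by STAT5 and STAT6, fell with Fat1562 in VAT by 1.97-fold (edgeR adjusted p = 1.87e-05) and 1.82-fold (edgeR adjusted p = 0.00227). Socs2 is not among the genes of this list and stands only on that of the JAK and STAT inhibitors. Some of these genes are induced by other cytokines too, and several, among them Socs1, Cish, Gfi1, Socs3 and Il10, stand on more than 1 of the lists.

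Il21r, the IL-21 binding chain (chr7:125603429-125633570, plus strand), was called in no comparison. It had 1576, 2188 and 1790 normalized counts in Spl/LN with adjuvant alone and 2631, 2237 and 2224 with Fat1562. In VAT it had 1835 and 1540 with adjuvant alone and 2226, 2130 and 1897 with Fat1562. Within each tissue the Fat1562 libraries lay above those with adjuvant alone, by 0.35 ± 0.12 SE in Spl/LN (edgeR adjusted p = 0.108) and 0.30 ± 0.13 SE in VAT (edgeR adjusted p = 0.192) on the log2 scale. The Spl/LN difference was called without a filter on low counts (0.0233) and when replicate 2 given adjuvant alone was left out (0.0295). Between tissues the log2 fold change was −0.13 (95% interval −0.41 to 0.15) with adjuvant alone and −0.18 (−0.43 to 0.07) with Fat1562.

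The common chain Il2rg, shared by the receptors for IL-4, IL-7 and IL-21, exceeded each of them per kb in every library. Per kb, Il4ra was 0.0869 to 0.161, Il7r 0.152 to 0.328 and Il21r 0.164 to 0.315 of it. Its counts were 5149 ± 140 (SD, n = 3) and 6489 ± 336 (SD, n = 3) in Spl/LN without and with Fat1562, and 7220 ± 679 (SD, n = 2) and 5664 ± 221 (SD, n = 3) in VAT. Fat1562 thus raised Il2rg in Spl/LN by 0.33 ± 0.07 SE on the log2 scale (edgeR adjusted p = 0.0147) and lowered it in VAT (−0.35 ± 0.08 SE, edgeR adjusted p = 0.0114). The interaction was −0.68 ± 0.11 SE (edgeR adjusted p = 0.00160). The single changes were less stable. The one in VAT was lost without VAT replicate 1 given adjuvant alone (0.190), and the one in Spl/LN without replicate 2 given adjuvant alone (0.0521) or replicate 2 (0.0930) or 3 (0.0600) given Fat1562.

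**Figure D4:**
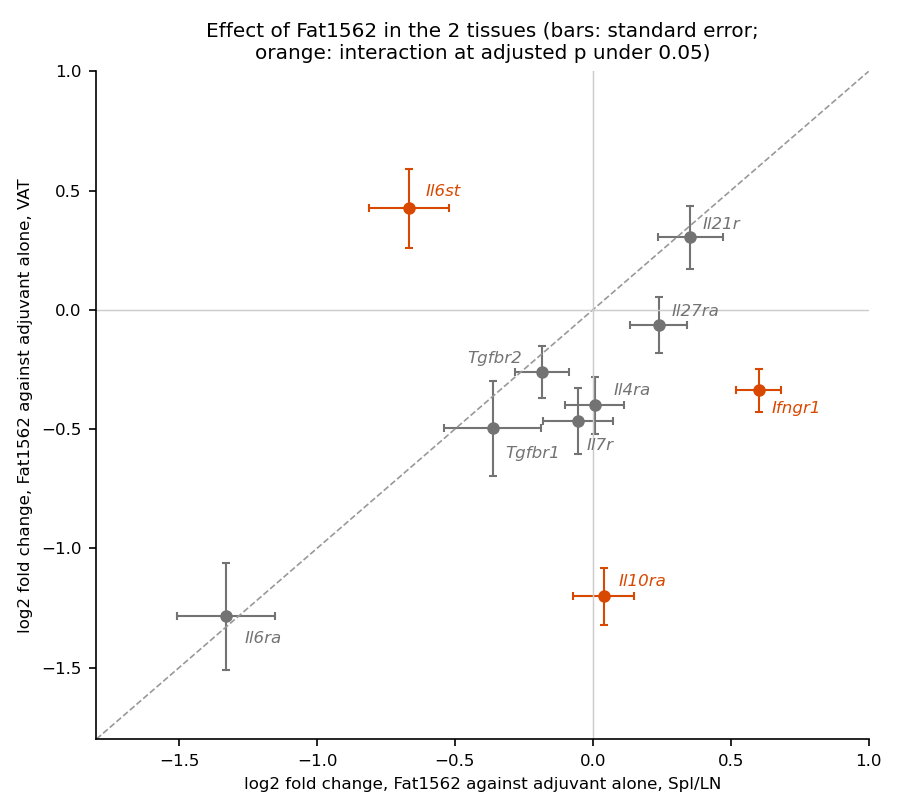
Log2 fold change with Fat1562 against adjuvant alone in Spl/LN (x axis) and in VAT (y axis) for the 10 receptor chains, with standard errors; the dashed line marks equal change in both tissues and orange marks an interaction with an adjusted p under 0.05. Il6ra lies on the line at −1.33 and −1.29, while Il6st lies above it and Ifngr1 and Il10ra lie below it.

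Of the 2 TGF-β receptor kinases, Tgfbr2 was called in 1 comparison and Tgfbr1 was not called. Tgfbr2 (chr9:116084293-116175360, minus strand) had 1515, 1631 and 1516 normalized counts in Spl/LN with adjuvant alone and 1568, 1241 and 1290 with Fat1562. In VAT it had 1251 and 1372 with adjuvant alone and 1063, 1113 and 1108 with Fat1562. It was 1.25-fold lower in VAT with Fat1562 (log2 fold change −0.32 ± 0.10 SE, edgeR adjusted p = 0.0362), where the groups did not overlap. With adjuvant alone the estimate was −0.25 ± 0.11 SE (edgeR adjusted p = 0.153), but it was −0.38 and called with quantile normalization (limma adjusted p = 0.0238). The call with Fat1562 was lost on leaving out Spl/LN replicate 1 (log2 fold change −0.21, adjusted p = 0.208) or 3 (0.0502) or VAT replicate 1 (0.116), 2 (0.0850) or 3 (0.0692) given Fat1562. The Fat1562 differences of −0.26 in VAT and −0.19 in Spl/LN were not called.

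Tgfbr1 (chr4:47353222-47414931, plus strand) had 280, 334 and 300 normalized counts in Spl/LN with adjuvant alone and 278, 220 and 212 with Fat1562. In VAT it had 253 and 316 with adjuvant alone and 245, 164 and 195 with Fat1562. Its estimates were below 0 in all 4 comparisons and none was called. The 95% intervals for Fat1562 were −0.91 to −0.08 in VAT (edgeR adjusted p = 0.145) and −0.73 to 0.01 in Spl/LN (edgeR adjusted p = 0.281). Per kb, Tgfbr2 exceeded Tgfbr1 by 3.71 to 4.62-fold on average in the 4 groups. In Spl/LN the ratios with Fat1562 (4.496 to 4.855) lay above those with adjuvant alone (3.894 to 4.323), and in VAT the 2 conditions overlapped.

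Several genes that act before or after these kinases differed between tissues. Of 20 genes of TGF-β signaling listed, 19 were tested. With adjuvant alone 5 were higher and 2 lower in VAT (Lrrc32 and Itgae), and with Fat1562, 7 were higher and 1 lower. Their median log2 fold changes were 0.21 and 0.78, against −0.03 and −0.01 over all genes tested. Of all these genes, 9.09% were higher and 7.17% lower with adjuvant alone, and 8.26% were higher and 6.73% lower with Fat1562. Higher in VAT under both conditions were the corepressor Tgif1 (5.86-fold with adjuvant alone and 6.71-fold with Fat1562, edgeR adjusted p = 3.21e-10 and 1.26e-10), the SMAD inhibitor Skil (2.54-fold and 3.30-fold, edgeR adjusted p = 1.78e-05 and 5.25e-07), the integrin chain Itgav (5.82-fold and 3.60-fold, edgeR adjusted p = 7.44e-10 and 1.80e-08) and the protease Furin, which cleaves the TGF-β precursor (2.79-fold and 3.40-fold, edgeR adjusted p = 0.00103 and 9.28e-05). The inhibitory Smad7 was 3.38-fold higher with Fat1562 (edgeR adjusted p = 1.46e-05) and 2.02-fold higher with adjuvant alone (edgeR adjusted p = 0.00468, but 0.174 and a log2 fold change of 0.62 without VAT replicate 1). Smad2, Smad4 and Ski were called in no comparison.

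Lrrc32 and Itgb8, which hold and release latent TGF-β at the Treg surface, changed with Fat1562 differently in the 2 tissues. Lrrc32, which encodes the docking protein GARP, had 543, 797 and 597 normalized counts in Spl/LN with adjuvant alone and 341, 280 and 348 with Fat1562. In VAT it had 253 and 292 with adjuvant alone and 1252, 1167 and 1022 with Fat1562. It fell 1.99-fold in Spl/LN (edgeR adjusted p = 0.000684) and rose 4.21-fold in VAT (edgeR adjusted p = 1.16e-06), with an interaction of 3.07 ± 0.23 SE (edgeR adjusted p = 2.52e-06). Itgb8, the integrin chain that pairs with Itgav to release TGF-β, had 248 to 331 normalized counts in the 8 libraries outside VAT with Fat1562. In VAT with Fat1562 it had 1229, 879 and 744 and had risen 3.61-fold (edgeR adjusted p = 1.18e-05), with an interaction of 1.81 ± 0.26 SE (edgeR adjusted p = 0.000688). Itgae (CD103), a TGF-β induced integrin chain, was 3.02-fold lower in VAT than in Spl/LN with adjuvant alone (edgeR adjusted p = 1.73e-07). Its mean there in Spl/LN was 5488 normalized counts. With Fat1562 it fell 2.65-fold in Spl/LN (edgeR adjusted p = 3.40e-06), and the tissue difference was not called (edgeR adjusted p = 0.171). In VAT its level was 1818 ± 12.5 (SD, n = 2) and 1742 ± 102 (SD, n = 3) without and with Fat1562, a log2 difference of −0.06 that was not called.

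**Figure D5:**
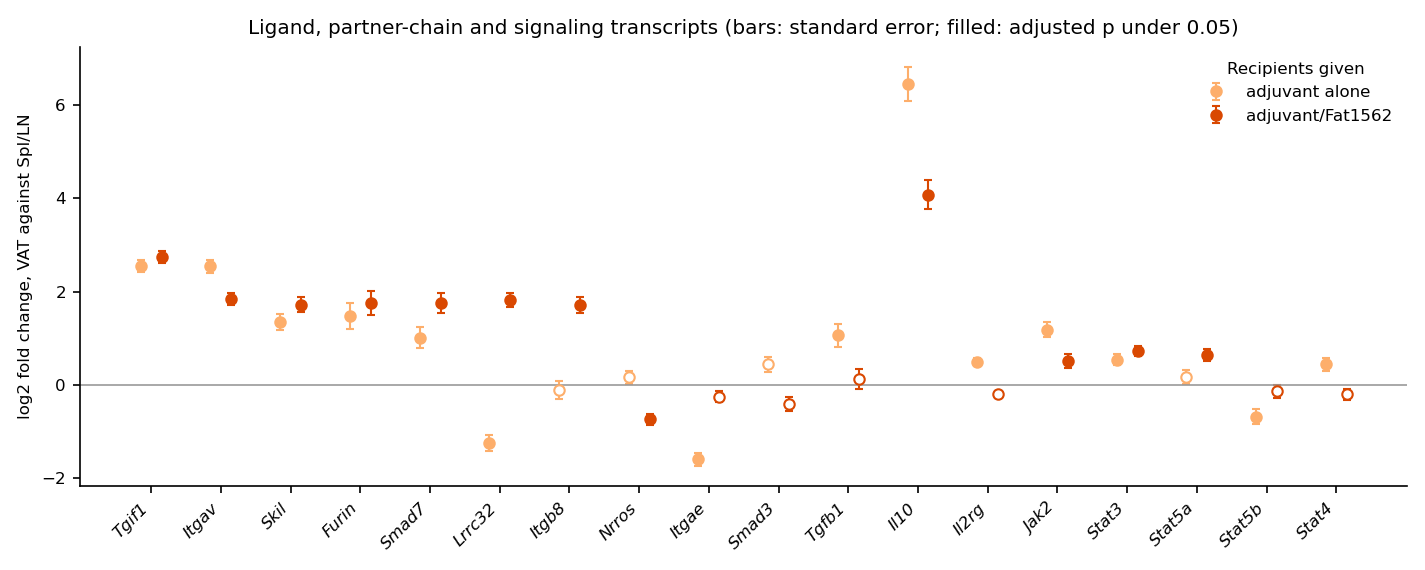
Log2 fold change of VAT against Spl/LN (y axis, bars are standard errors) for TGF-β pathway, ligand, common chain and JAK/STAT transcripts, with adjuvant alone (light) and adjuvant/Fat1562 (dark); filled points have an adjusted p under 0.05. Il10 stands at 6.45 and 4.08, and Lrrc32 lies below 0 with adjuvant alone and above 0 with Fat1562.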

How the data were processed

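RNA-seq of 11 libraries of sorted vTreg53 Treg cells was analysed. The authors deposited one table of gene counts, whole numbers without normalization, made from paired 38-base reads of Smart-seq2 libraries (18 PCR cycles, no molecular identifiers named). The submitters' processing notes name STAR 2.5.4, featureCounts and mm10. The study's methods name Cuffquant instead. The annotation and strand setting are not given in the sources used here. Without molecular identifiers, counts are of amplified fragments, and errors do not cover molecules lost before amplification. Each column matched the labels of 1 sample, and 0 columns were left unmatched.

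A gene was tested (12932 of 52997) if, once libraries were scaled to their mean total, 1 group or more averaged over 10 counts. The test was edgeR 4.0.16 in R 4.3.3 (TMM, quasi-likelihood fit of the 4 groups, prior count 0.125), with Benjamini-Hochberg adjustment across those genes. The common biological coefficient of variation was 19.1%. Errors beside levels are SDs between libraries. The same steps were tested on simulated counts. Alternatives were no filter, a mean above 50, DESeq2's size factors within edgeR, limma 3.58.1 after quantile scaling, limma voom, DESeq2 1.42.0, a fit to only the groups compared, the replicate number as a block, and omitting libraries one by one.

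The members, the gene lists and the tests were chosen with earlier results of these data known. The text names all members, genes of the lists that passed the test or define a list, Foxp3 and Cd4, and for each called member the 2 genes of highest Pearson correlation over the 11 libraries. Positions, exon lengths and overlaps come from GENCODE vM21 (GRCm38), which held 49439 of the 52997 symbols and all 10 members. Levels per kb are normalized counts divided by the length of all annotated exons. Sequences come from RefSeq (GRCm38.p6). Values of a few list genes are not reported here.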

Additional observations from a re-analysis of the deposited data

Results flagged for a closer look

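The change with Fat1562 differed between VAT and Spl/LN for 3 of the 10 receptors by edgeR's test of the interaction in the fit of all 11 libraries. The effect in VAT minus that in Spl/LN was 1.09 ± 0.22 SE on the log2 scale for Il6st (adjusted p = 0.00901), where the estimate was above 0 in VAT and below 0 in Spl/LN. Without VAT replicate 1 given adjuvant alone the difference for Il6st was not called (adjusted p = 0.0705). It was −1.24 ± 0.16 SE for Il10ra (adjusted p = 0.000331), where the fall was in VAT and the interval in Spl/LN covered 0. It was −0.94 ± 0.12 SE for Ifngr1 (adjusted p = 0.000313), which fell in VAT and rose in Spl/LN. No group held 4 or more libraries, so no library was tested for lying outside its group.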

How the results depend on the processing

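Over the 10 receptors and 5 comparisons, 720 alternative values were computed, of which 651 kept the direction and the side of the threshold, 40 lost a call, 9 gained one and 20 changed sign. The calls that held under every alternative were Ifngr1 and Il6ra in both tissue comparisons and in Spl/LN with Fat1562, Il10ra, Il4ra and Il7r between tissues with adjuvant alone, Il10ra with Fat1562 in VAT, and the interactions of Ifngr1 and Il10ra. Of the 5 members called between tissues with adjuvant/Fat1562, 3 remained called with the replicate block. Of the 5 called with Fat1562 in VAT, 3 remained called with quantile normalization, with only the groups compared, and with the replicate block. The block joined libraries of the same number across both treatments, although these came from different recipients. It therefore cannot show what a pairing of Spl/LN and VAT within a treatment would change, and no such pairing was fitted. Whether libraries of the same number came from the same mice is not given. The correlations of same-numbered libraries ran from −0.0395 to 0.0554 over 15 pairs, most of which joined different treatments. Within a treatment, Spl/LN and VAT libraries of the same number correlated at 0.0299 to 0.0554, and those of different numbers at −0.0576 to 0.0277. The ranges within a treatment did not overlap, but values this small do not settle whether the numbers pair the libraries. When each library was left out in turn, the number of members called ranged from 5 to 6 and from 2 to 4 between tissues with adjuvant alone and with Fat1562, from 1 to 5 and from 2 to 4 with Fat1562 in VAT and in Spl/LN, and from 2 to 4 for the interaction. The changes of sign concerned uncalled values. For Il4ra with Fat1562 in Spl/LN the log2 fold change was −0.0074 with a mean above 50, −0.038 with quantile normalization and −0.00050 with only the groups compared, and for Il10ra there it was −0.016 with quantile normalization. On leaving out 1 library these ran from −0.050 to 0.055 and from −0.047 to 0.104. Likewise the tissue difference with adjuvant alone ran from −0.270 to 0.0088 for Il21r and from −0.275 to 0.046 for Tgfbr1. The interaction was 0.0070 for Il21r with quantile normalization, and on leaving out 1 library ran from −0.190 to 0.089 for Il21r, from −0.235 to 0.390 for Il6ra, from −0.297 to 0.039 for Tgfbr1 and from −0.138 to 0.037 for Tgfbr2. Where 1 VAT library with adjuvant alone was left, it was assumed to vary like the other groups. The change of Il2rg in Spl/LN and its VAT excess with adjuvant alone were not called with quantile normalization (adjusted p = 0.0993 and 0.0952), and that of Il10 in VAT not with quantile normalization (0.0564) or DESeq2 (0.153). The cause of these differences was not tested. Groups of 2 or 3 libraries limit the precision, and for Il6ra in VAT so do its 43 to 118 counts.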

Other observations

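Other cytokine receptor chains, among them those of the IL-1 receptor family, also differed between these Treg cells. Of 26 such genes listed, 20 were tested, and 8 were higher and 1 lower in VAT with adjuvant alone, with a median log2 fold change of 0.50 against −0.03 over all genes. With adjuvant/Fat1562, 8 were higher and 2 lower. Of all genes tested, 16.3% were called in the first of these comparisons and 15% in the second. Il1rl1, which encodes the IL-33 receptor ST2, had 782, 740 and 853 normalized counts in Spl/LN and 6610 and 6443 in VAT with adjuvant alone. With Fat1562 it had 549, 680 and 490 in Spl/LN and 2767, 1611 and 1531 in VAT. It fell 3.32-fold with Fat1562 in VAT (edgeR adjusted p = 1.16e-05). Il1r2, the decoy receptor for IL-1, changed the other way. It had 724 and 604 normalized counts in VAT with adjuvant alone and 3335, 3328 and 3085 with Fat1562, a 4.89-fold rise (edgeR adjusted p = 2.80e-06), while the 6 Spl/LN libraries had 261 to 504. Il18r1, the IL-18 binding chain, was 3.31-fold lower in VAT with adjuvant alone (edgeR adjusted p = 2.10e-05) and rose 2.67-fold there with Fat1562 (edgeR adjusted p = 0.000465). Il18rap, the other chain of the IL-18 receptor, was higher in VAT. Its excess was 4.03-fold with adjuvant alone and 1.98-fold with Fat1562 (edgeR adjusted p = 1.72e-06 and 0.00135). Il9r, for IL-9, fell 2.33-fold with Fat1562 in VAT (edgeR adjusted p = 5.59e-05), and Il2ra, the high-affinity chain for IL-2, was 3.67-fold and 3.79-fold higher in VAT without and with Fat1562 (edgeR adjusted p = 1.75e-07 and 9.30e-08). The interaction of tissue and immunization was called for Il1rl1, Il1r2, Il18r1 and Il9r (edgeR adjusted p = 0.00986, 0.000239, 0.00758 and 0.00697), for Il9r not without VAT replicate 1 given adjuvant alone (0.0551).

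Across the 11 libraries, the genes whose log2 normalized counts followed each called receptor most closely were sought among 7363 tested genes with a mean of at least 100. The correlations are descriptions over libraries of 4 groups that share tissue and treatment. For Ifngr1 they were the chemokine receptor Cxcr6 (r = 0.989) and Traf1 (r = 0.988). Cxcr6 had 400 ± 69.6 and 1055 ± 148 normalized counts in Spl/LN without and with Fat1562 (SD, n = 3 each), and 5414 ± 145 (SD, n = 2) and 4483 ± 858 (SD, n = 3) in VAT. For Il4ra they were Gata3 (r = 0.981) and Cd200r1 (r = 0.953), and for Il7r Gata3 (r = 0.926) and Socs2 (r = 0.919). Il6ra went with Pik3ip1 (r = 0.980), an inhibitor of PI3 kinase, and Thada (r = 0.979), and Tgfbr2 with Pik3ip1 (r = 0.9502) and Ccdc134 (r = 0.945). Pik3ip1 fell from group to group as Il6ra did, from 340 ± 18.9 and 193 ± 38.6 in Spl/LN (SD, n = 3 each) to 128 ± 37.3 (SD, n = 2) and 62.9 ± 7.98 (SD, n = 3) in VAT. The closest genes were Cd101 (r = 0.914) and Mical3 (r = 0.885) for Il6st, Ell (r = 0.974) and Igkv14-126 (r = 0.972) for Il10ra, and Gimap1 (r = 0.941) and Grcc10 (r = 0.931) for Il27ra. Igkv14-126, an immunoglobulin gene, reached the mean of 100 only through VAT with adjuvant alone, with 281 and 1746 normalized counts there and 0 to 10.9 in the other 9 libraries.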
